A study of Mus musculus with 2 samples.

Results

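The genes described here are 9 transcription factors that act in myeloid lineages, Spi1, Cebpa, Cebpb, Irf8, Batf3, Irf4, Tcf4, Maf and Bhlhe40. They were chosen by symbol, are 9 of the 55401 genes in the deposited matrix, and all 9 were found. The samples were lung cells of Siah1a/2 KO mice and of WT mice, both treated with urethane, a carcinogen that induces lung tumours, and taken 7 weeks after its initial dose. Live cells bearing CD45, a surface protein of white blood cells, were sorted and profiled with the 10x Genomics 3′ chemistry, in which each captured transcript is counted once as a unique molecular identifier (UMI). The labels give 1 sample per genotype and name neither the allele, any promoter or Cre behind the mutation, the age of the mice, nor how many animals went into a sample. Cell barcodes carried the suffix 1 or 2, and no label ties a suffix to a genotype. The suffixes are therefore called library 1 and library 2, without a genotype, and a ratio between them is not an effect of Siah1a/2 loss.

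PU.1, the protein of Spi1, opens enhancers in myeloid and B cell precursors, and the C/EBP factors act with it in granulocytes, monocytes and macrophages. Among dendritic cells, IRF8 and BATF3 maintain the cross-presenting type 1 conventional cells (cDC1), IRF4 serves type 2 conventional cells (cDC2), and TCF4, also called E2-2, maintains plasmacytoid cells, the main producers of type I interferon. MAF is linked to tissue macrophages and to interleukin 10 production in T cells, and BHLHE40 represses Il10 in T cells and macrophages.

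The depth was 86227008 UMIs over 8522 barcodes in library 1 (median 8303 per barcode) and 59459790 UMIs over 6479 barcodes in library 2 (median 7546 per barcode). Cells were gated by summed UMIs of marker genes, none of them a member, which placed 5608 cells of library 1 and 4506 of library 2 in 15 gates. The macrophage gate (C1qa, C1qb and C1qc) was also divided into sub-gates. A panel gene had the largest fold over the other gated cells in every gate but macrophages (Retnla), non-classical monocytes (Fabp4), neutrophils (Stfa2l1) and gamma-delta T cells (Il17a), where panel genes followed within the leading genes. In regulatory T cells the haemoglobin genes Hba-a2, Hba-a1 and Hbb-bs came next after Foxp3. Of the gated cells, 73.5% and 76.3% of CD4 T-gated cells, and 47.0% and 63.4% of regulatory T-gated cells, lay within 1 UMI of the gate's level. Of the alveolar macrophage markers, Ear1, Fabp1, Car4 and Cidec had 0 UMIs in both libraries, and within the macrophage gate Plet1 and Krt79 had 0, Marco 2 and 0, Siglecf 6 and 1, and Atp6v0d2 3 and 4. In all kept cells, Plet1 had 569 and 424 UMIs, Atp6v0d2 120 and 67, Siglecf 55 and 69, Krt79 13 and 5, and Marco 5 and 0. Lyz2, a lysozyme gene usually abundant in myeloid cells, stood at 7.16 CPM (UMIs per 1000000 UMIs) in library 1 and 7.16 CPM in library 2, and was not used. The libraries shared 11 barcode sequences, of which 3 were gated in both. Each library is 1 sample, so no test was made. Intervals are exact at 95% and cover counting error only.

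The members divided the gates in nearly the same way in both libraries. For 7 of 9, the gate with the highest level was the same in library 1 and library 2, among the 14 gates with at least 20 cells in each. Irf8 and Tcf4 peaked in plasmacytoid cells, Batf3 in migratory dendritic cells, Cebpb in neutrophils, Cebpa in macrophages, Irf4 in B cells and Maf in regulatory T cells. The 14 gates leave out cDC1, which had 11 cells in library 2. Batf3 stood higher in cDC1 than in migratory dendritic cells in both libraries, at 201 CPM and 174 CPM, though not beyond counting error. Spi1 was led by neutrophils in library 1 and non-classical monocytes in library 2, and Bhlhe40 by CD4 T cells in library 1 and CD8 T cells in library 2. In both cases the leading levels did not differ beyond counting error within a library. The share of a member's UMIs that fell in a gate, among all kept cells, lay between 53.0% for Spi1 and 73.3% for Bhlhe40. Cells with at least 3000 UMIs were also thinned to 3000 UMIs, and shallower cells were left out of the thinned values. That left out 62 of 93 and 111 of 162 neutrophils, and 32 of 105 and 23 of 53 B cells. After thinning, the median macrophage-gated cell held a UMI of 3 of the 9 in library 1 and 3 in library 2.

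**Figure D1:**
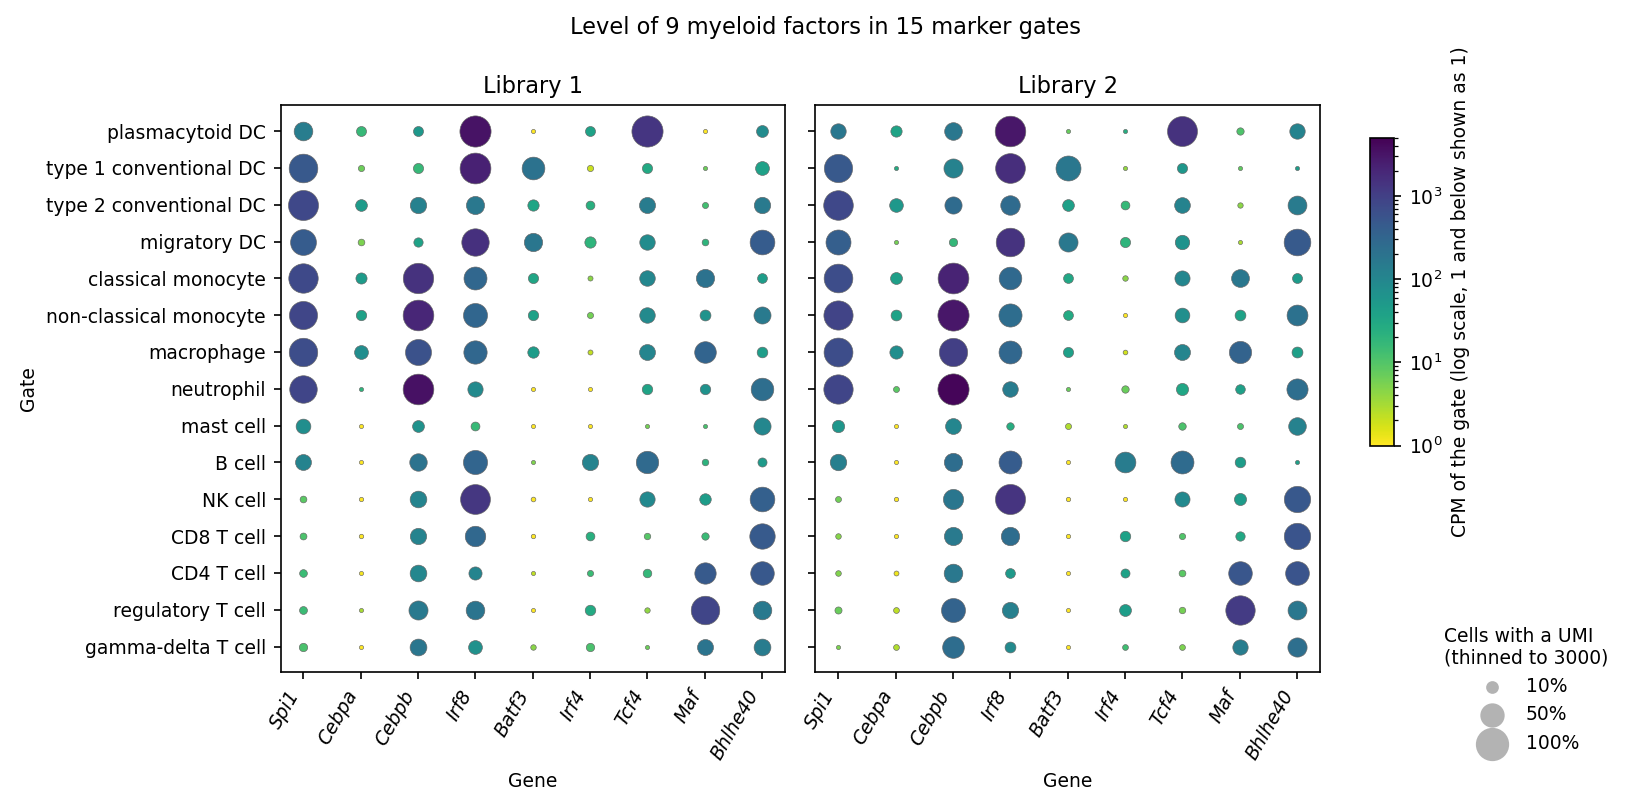
Level of the 9 genes in 15 gates in library 1 (left) and library 2 (right). Colour gives the CPM of the gate on a log scale. The area of a circle grows with the share of cells with a UMI after thinning to 3000 UMIs. Cells below 3000 UMIs are left out of that share, most of the neutrophils among them. Irf8 and Tcf4 are darkest in plasmacytoid cells, and Cebpb in neutrophils, where it stands at 3440 CPM and 4469 CPM.

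Irf8, which encodes the interferon regulatory factor needed for cDC1 and for monocyte commitment, divided the dendritic gates. It was very high in plasmacytoid, cDC1 and migratory dendritic cells and much lower in cDC2. Its level in NK cells did not differ beyond counting error from that in migratory dendritic cells in library 2, so high Irf8 was not limited to dendritic cells. Macrophages and monocytes held near-equal levels, above cDC2 in library 1, while in library 2 cDC2 did not differ from classical monocytes beyond counting error. The gene lies on chromosome 8 at 120736358 to 120756694 on the forward strand (GRCm38, GENCODE M21).

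Irf8 stood at 3293 CPM in library 1 and 3017 CPM in library 2 in plasmacytoid cells, the gate with 24 and 26 cells. In cDC1 it stood at 2316 CPM in library 1, from 44 cells, and 1625 CPM in library 2, from 11 cells. In cDC2 the values were 167 CPM and 264 CPM. The 3 dendritic gates with high Irf8 thus all stood above cDC2 in each library, with migratory dendritic cells at 1539 CPM in library 1 and 1429.9 CPM in library 2. The cDC1 level was 13.9 times that of cDC2 in library 1 (12.1 to 16.0) and 6.16 times in library 2 (5.30 to 7.17). Plasmacytoid cells exceeded cDC2 by 19.7 times in library 1 (16.97 to 23.03) and 11.4 times in library 2 (10.0 to 13.1). Against migratory dendritic cells, cDC1 were higher by 1.505 times (1.41 to 1.61) and 1.14 times (1.01 to 1.28).

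NK cells held 1308 CPM of Irf8 in library 1 and 1407 CPM in library 2. After thinning, 91.4% of NK cells in library 1 and 93.03% in library 2 had an Irf8 UMI, against 6.45% and 4.08% of mast cells. Without thinning the shares were 97.8% and 97.8% in NK cells, and 9.46% and 14.5% in mast cells, with median depths of 10372.5 and 9027 UMIs in NK cells and 6500.5 and 4729 UMIs in mast cells. The mast cell share marks the level reached in a type at the low end of Irf8. B cells followed at 323 CPM and 427 CPM.

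Among monocytes and macrophages the Irf8 levels lay close together. Macrophages had 299 CPM in library 1 and 299 CPM in library 2, and classical monocytes had 299 CPM and 282 CPM. Their ratio was 1.00 in library 1 (0.937 to 1.07) and 1.06 in library 2 (0.978 to 1.15). Non-classical monocytes stood at 315 CPM and 245 CPM, which did not differ beyond counting error from classical monocytes in either library. Neutrophils were lower, at 89.1 CPM and 144 CPM.

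The 250 bases before the first annotated start of Irf8, at chr8:120736108-120736357 on the forward strand (RefSeq, GRCm38.p6), are shown because the level of Irf8 divides the dendritic gates. Capitals mark matches to TTCNNNGAA, a pattern that STAT factors bind (the gamma-activated site), searched on both strands. Bases are numbered backwards from -1, the base next to the start.
Irf8: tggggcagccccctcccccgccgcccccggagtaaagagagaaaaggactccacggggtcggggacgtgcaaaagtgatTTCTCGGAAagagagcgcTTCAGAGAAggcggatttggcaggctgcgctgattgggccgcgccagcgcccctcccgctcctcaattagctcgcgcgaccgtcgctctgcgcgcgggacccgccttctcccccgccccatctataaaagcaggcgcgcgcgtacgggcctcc
The matches TTCTCGGAA and TTCAGAGAA span bases -171 to -163 and -153 to -145. Of 32851 windows of the same length in the table, 7.02% held at least 1 match. No match was found here to TTGCNNAA (C/EBP type, 9.56% of windows), GAGGAA (ETS type, 23.3%), GAAANNGAA (interferon-stimulated type, 7.13%), CANCTG (E-box, 44.8%), CACGTG (6.02%), TGANTCA (AP-1, 6.75%) or TGACG (core of a cAMP response element, 17.8%). A second window, before a start further into the gene, held an E-box match (CAGGTG) and no TTCNNNGAA, and is not printed. These are letter matches in each window and say nothing of binding.

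Batf3, whose AP-1 family product partners IRF8 in cDC1, was confined to fewer gates. It was highest in cDC1 and migratory dendritic cells and several times lower in cDC2. Macrophages and monocytes held a low level, and lymphoid cells almost none. The gene lies on chromosome 1 at 191097847 to 191108945 on the forward strand. Batf3 had 201 CPM in library 1 and 174 CPM in library 2 in cDC1, and 176 CPM and 166 CPM in migratory dendritic cells. The cDC1 level was 6.11 times that of cDC2 in library 1 (4.38 to 8.70) and 4.18 times in library 2 (2.71 to 6.43). Between cDC1 and migratory dendritic cells the ratio was 1.14 (0.927 to 1.41) and 1.05 (0.721 to 1.498). In plasmacytoid cells, which share high Irf8 with cDC1, Batf3 had 0 UMIs in library 1, where 3 UMIs would be 12.3 CPM, and 7.16 CPM in library 2.

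Outside the dendritic gates, Batf3 stood at 45.9 CPM and 41.2 CPM in macrophages and at 33.6 CPM and 31.4 CPM in classical monocytes. These levels were near those of cDC2, at 32.9 CPM in library 1 and 41.5 CPM in library 2. NK cells, at 0.869 CPM and 0.942 CPM, held high Irf8 with almost no Batf3. After thinning, 52.3% and 63.6% of cDC1 had a Batf3 UMI, against 0.510% and 0.199% of NK cells (93.2% and 90.9% against 0.917% and 0.577% without thinning).

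Irf4, the interferon regulatory factor of plasma cells, activated T cells and cDC2, was a low transcript in every myeloid gate. B cells were the highest gate, and T cells and the Irf8-low cDC2 came next along with plasmacytoid and migratory dendritic cells. In macrophages, monocytes and NK cells it was nearly absent. It lies on chromosome 13 at 30749226 to 30766976 on the forward strand. Irf4 stood at 110 CPM in library 1 and 142 CPM in library 2 in B cells. Regulatory T cells held 28.5 CPM and 45.1 CPM, and CD8 T cells 23.0 CPM and 37.7 CPM. In cDC2 it stood at 23.0 CPM and 16.4 CPM, from 30 and 19 UMIs, and in migratory dendritic cells at 19.4 CPM and 19.4 CPM. B cells alone stood above the next gate beyond counting error in both libraries.

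In cDC1, Irf4 rested on 2 UMIs in library 1 and 1 in library 2. The cDC2 level was 11.8 times that of cDC1 in library 1 (2.98 to 102) and 4.17 times in library 2 (0.662 to 173). Counting error therefore leaves the size of that difference wide, and in library 2 its interval includes no difference. Macrophages had 2.22 CPM and 1.84 CPM.

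Irf8 UMIs outnumbered Irf4 UMIs in both conventional dendritic gates, and the Irf4 share was larger in cDC2. Of Irf4 and Irf8 UMIs together, Irf4 made up 12.1% in library 1 (8.31 to 16.8) and 5.86% in library 2 (3.57 to 9.01) in cDC2. In cDC1 the Irf4 share was 0.0842% (0.0102 to 0.304) and 0.242% (0.00613 to 1.34). It was 25.5% and 25.0% in B cells, and 0.0609% and 0.0602% in NK cells. CD4 T cells had 12.1% in library 1 (6.63 to 19.9) and 42.3% in library 2 (30.6 to 54.6). The share depends on how well each transcript is captured and is meant only for comparing gates.

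Tcf4, an E protein required by plasmacytoid cells, marked them most strongly among all gates. B cells came second, and most myeloid gates and NK cells shared a low level. In cDC1 and T cells it was lower still. Its locus is on chromosome 18 at 69343356 to 69689079 on the forward strand. Tcf4 stood at 1353 CPM in library 1 and 1499.6 CPM in library 2 in plasmacytoid cells. B cells had 273 CPM and 267 CPM, cDC2 145 CPM and 112 CPM, and macrophages 104 CPM and 102 CPM. Plasmacytoid cells thus exceeded B cells by 4.96 times in library 1 (3.97 to 6.24) and 5.62 times in library 2 (4.13 to 7.83). After thinning, 100% of 23 and 92.3% of 26 plasmacytoid cells had a Tcf4 UMI.

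Between the conventional dendritic gates, Tcf4 had the reverse order of Irf8. It stood at 29.3 CPM in library 1 and 55.2 CPM in library 2 in cDC1. The cDC2 level was 4.97 times that of cDC1 in library 1 (3.37 to 7.56) and 2.02 times in library 2 (1.16 to 3.80). T cells held little, with regulatory T cells at 4.07 CPM and 5.93 CPM.

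**Figure D2:**
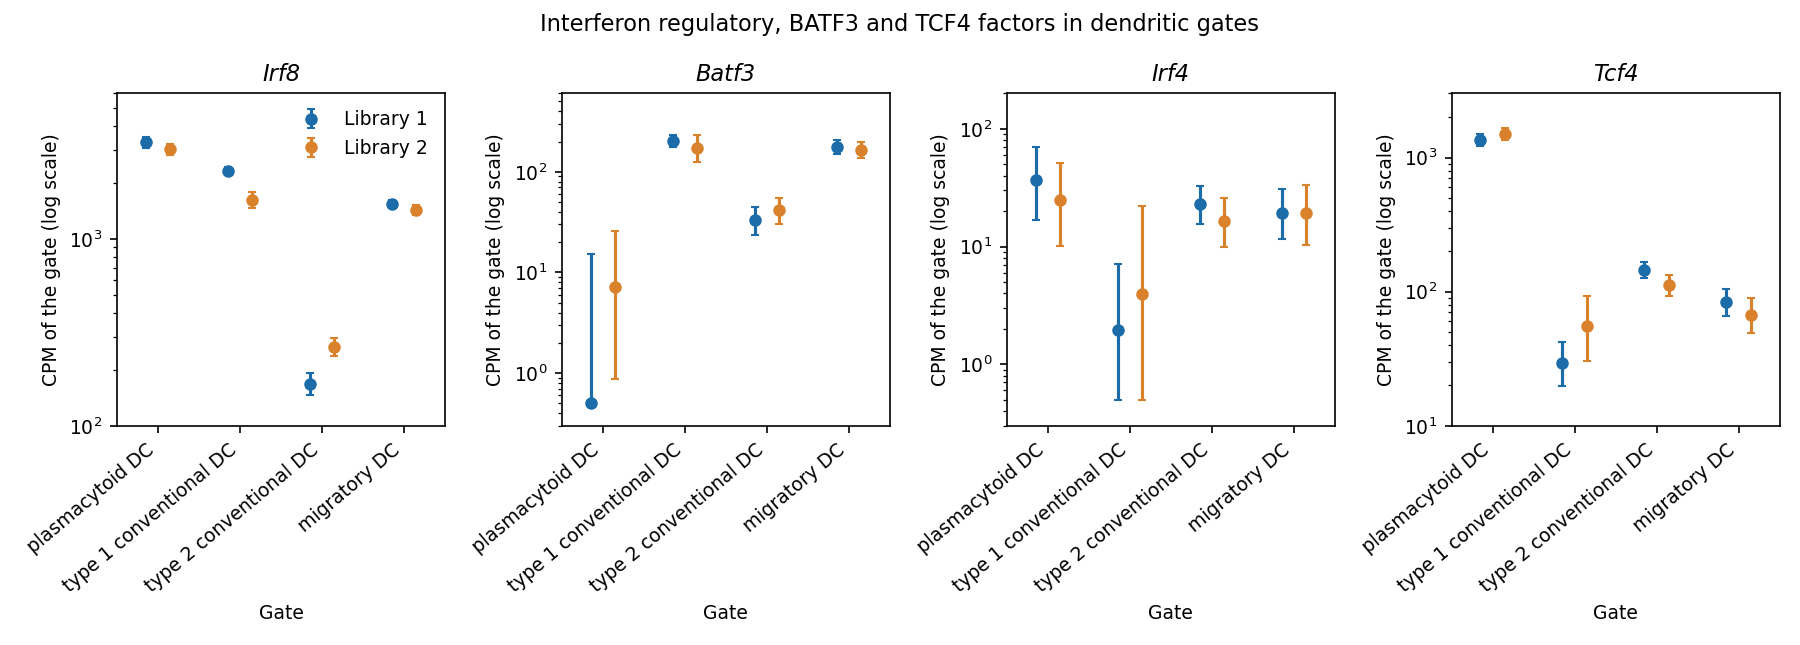
Irf8, Batf3, Irf4 and Tcf4 in 4 dendritic gates, as CPM of the gate on log axes that differ between panels. Points are library 1 (blue) and library 2 (orange), bars are exact 95% Poisson intervals, and values below 0.5 CPM are drawn at 0.5. Irf8 is high in all gates but cDC2, Batf3 in cDC1 and migratory cells, and Tcf4 in plasmacytoid cells.

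Spi1, which encodes PU.1, was broad across the myeloid gates other than mast cells, unlike the dendritic factors. Neutrophils, monocytes, macrophages and cDC2 all lay in a narrow upper range, cDC1 and migratory dendritic cells lay somewhat lower, and plasmacytoid and B cells lower again. Mast cells were low, at 78.0 CPM in library 1 and 57.8 CPM in library 2, and T and NK cells were near zero. The gene lies on chromosome 2 at 91082390 to 91115756 on the forward strand. Spi1 stood at 864 CPM in library 1 and 872 CPM in library 2 in neutrophils, and at 855 CPM and 901 CPM in non-classical monocytes. In macrophages it stood at 686 CPM and 692 CPM, and in classical monocytes at 759.6 CPM and 701 CPM. Values of cDC2, at 786 CPM and 778 CPM, fell among them.

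In the lower myeloid range, Spi1 had 487 CPM and 481 CPM in cDC1, and 429 CPM and 389.6 CPM in migratory dendritic cells. B cells, which use PU.1 at low dose, held 110 CPM in library 1 and 130.4 CPM in library 2. The macrophage level was 6.23 times that of B cells in library 1 (4.60 to 8.65) and 5.31 times in library 2 (3.501 to 8.48). After thinning, 83.05% and 85.5% of macrophages had a Spi1 UMI, against 3.17% and 1.46% of CD8 T cells. Without thinning these shares were 97.5% and 98.7% in macrophages and 8.85% and 3.23% in CD8 T cells, whose median depth was lower (7812.5 and 6997 UMIs, against 11992 and 11650).

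The C/EBP genes followed different orders. Cebpb, the inducible member tied to neutrophils, monocytes and inflammation, ran down from neutrophils through non-classical and classical monocytes to macrophages, each step beyond counting error in both libraries. Cebpa, the factor of granulocyte and monocyte precursors, was instead highest in macrophages and low everywhere. Migratory dendritic cells and cDC1 were below the monocyte, macrophage, neutrophil and other dendritic gates for both genes in library 1.

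Cebpb stood at 3440.1 CPM in library 1 and 4469 CPM in library 2 in neutrophils. Non-classical monocytes had 1981 CPM and 3032 CPM, classical monocytes 1495 CPM and 2235 CPM, and macrophages 587 CPM and 1017 CPM. In cDC2 the level was 122 CPM and 264 CPM. Each of these gates stood lower in library 1, while the order among the gates was shared. Classical monocytes exceeded macrophages by 2.54 times in library 1 (2.45 to 2.64) and 2.199 times in library 2 (2.12 to 2.28). They exceeded cDC2 by 12.3 times (10.5 to 14.5) and 8.47 times (7.55 to 9.53).

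Lymphoid gates were not free of Cebpb. T, NK and B cells lay between 95.8 CPM and 197 CPM in library 1, and between 154 CPM and 342 CPM in library 2. These levels stood above those of migratory dendritic cells, at 36.7 CPM and 17.9 CPM, so the low level was not alike in all types.

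Cebpa stood at 78.3 CPM in library 1 and 77.7 CPM in library 2 in macrophages. Classical monocytes had 47.5 CPM and 41.7 CPM, and cDC2 49.0 CPM and 52.8 CPM. Macrophages were thus the only gate above its neighbour in the order beyond counting error in both libraries. The classical monocyte level was 0.607 times that of macrophages in library 1 (0.515 to 0.712) and 0.536 times in library 2 (0.438 to 0.653). Neutrophils, whose precursors need C/EBPα, held 6 and 5 UMIs. Mast cells and B cells had 0 UMIs in both libraries.

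The 250 bases before the annotated starts of Cebpb, at chr2:167688665-167688914, and Cebpa, at chr7:35119043-35119292, both on the forward strand (RefSeq, GRCm38.p6), are shown because the paralogues ran in different orders over the gates. Capitals in Cebpb mark TGACG, read on either strand (CGTCA).
Cebpb: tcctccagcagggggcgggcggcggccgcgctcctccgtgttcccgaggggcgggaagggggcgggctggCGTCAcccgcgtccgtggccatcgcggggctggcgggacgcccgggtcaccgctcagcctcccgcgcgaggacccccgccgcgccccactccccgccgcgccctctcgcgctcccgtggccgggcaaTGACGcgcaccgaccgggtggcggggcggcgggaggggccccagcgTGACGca
Cebpa: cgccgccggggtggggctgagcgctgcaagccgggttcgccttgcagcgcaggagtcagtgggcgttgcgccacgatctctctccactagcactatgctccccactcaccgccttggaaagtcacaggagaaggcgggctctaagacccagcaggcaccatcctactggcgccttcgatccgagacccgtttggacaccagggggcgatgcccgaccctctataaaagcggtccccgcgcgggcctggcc
The Cebpb window held 3 matches to TGACG, at bases -180 to -176, -53 to -49 and -7 to -3, and none to the other 7 patterns. The Cebpa window held no match to any of the 8 patterns. At least 1 TGACG was present in 17.8% of the 32851 windows. Cebpa lies on chromosome 7 at 35119293 to 35121928, and Cebpb on chromosome 2 at 167688915 to 167690418. Exons of the antisense Gm45091 overlap Cebpa, and exons of Tmem189 on the opposite strand overlap Cebpb. Exons on the opposite strand also overlap Maf (Gm15655) and Bhlhe40 (0610040F04Rik), and the sources used here do not say whether the counting used strand.

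**Figure D3:**
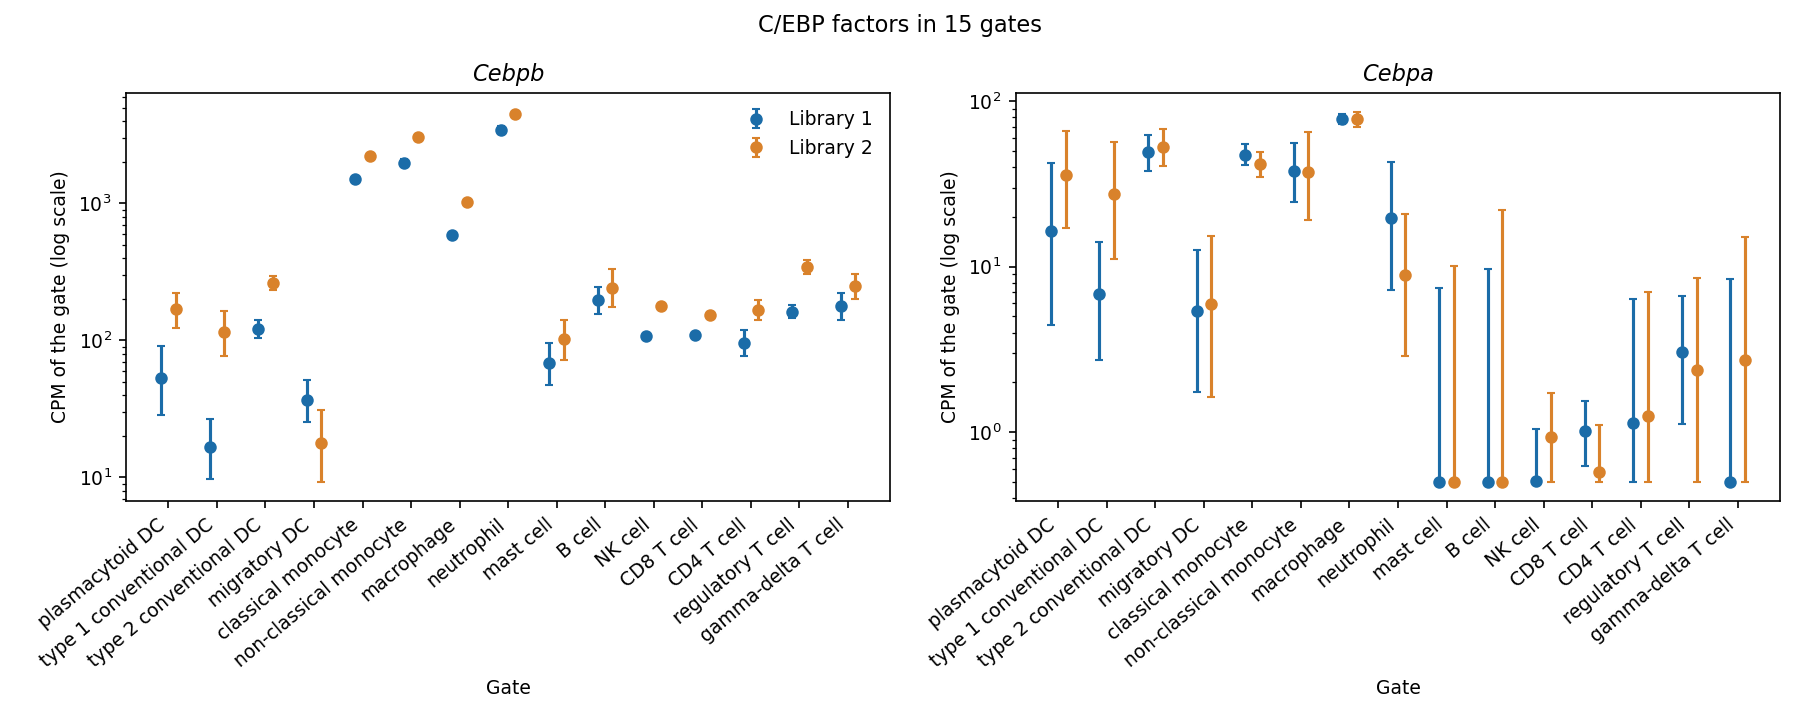
Cebpb (left) and Cebpa (right) in 15 gates, as CPM of the gate on log axes. Points are library 1 (blue) and library 2 (orange), bars are exact 95% Poisson intervals, and values below 0.5 CPM are drawn at 0.5. Cebpb lies lower in library 1 in every gate but migratory dendritic cells, and Cebpa peaks in macrophages at 78.3 CPM and 77.7 CPM.

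Maf, the large MAF factor of resident-type macrophages and of interleukin 10-producing T cells, was split between macrophages and T cells. Regulatory T cells were highest, CD4 T cells next, then macrophages and classical monocytes. Dendritic gates and CD8 T cells held little. The gene lies on chromosome 8 at 115682942 to 115707794 on the reverse strand. Maf stood at 882 CPM in library 1 and 1141 CPM in library 2 in regulatory T cells, and at 459.8 CPM and 511 CPM in CD4 T cells. Macrophages had 335 CPM and 346 CPM, and classical monocytes 201 CPM and 171 CPM. Macrophages exceeded classical monocytes by 1.67 times in library 1 (1.55 to 1.81) and 2.02 times in library 2 (1.84 to 2.23). In non-classical monocytes the values were 62.35 CPM and 37.2 CPM, and in cDC2 13.01 CPM and 4.33 CPM.

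Among the larger macrophage sub-gates, Maf was highest in cells gated on Folr2, Mrc1, Pf4, Cbr2 and Cd163, genes of resident interstitial macrophages. It stood at 439 CPM in library 1 and 518 CPM in library 2 in these 190 and 93 cells. In Cxcl9 macrophages, gated on a chemokine induced by interferon gamma, it stood at 262 CPM and 226 CPM, and in macrophages of no sub-gate at 223 CPM and 197 CPM. The Folr2 sub-gate thus stood above both in each library. Arg1 macrophages, few in number, had 740 CPM in library 1 (90 UMIs), above Folr2 macrophages, and 345 CPM in library 2 (33 UMIs), below them. The Maf level of Folr2 macrophages was 1.97 times that of the remaining macrophages in library 1 (1.81 to 2.14) and 2.64 times in library 2 (2.32 to 2.999). It was 1.67 times (1.47 to 1.92) and 2.29 times (1.92 to 2.74) that of Cxcl9 macrophages.

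Irf8 and Spi1 ran the other way within macrophages. Irf8 stood at 379 CPM in library 1 and 449.6 CPM in library 2 in Cxcl9 macrophages, against 246 CPM and 248 CPM in Folr2 macrophages. The ratio was 1.54 in library 1 (1.36 to 1.75) and 1.81 in library 2 (1.55 to 2.12). Spi1 in Folr2 macrophages was 0.812 times (0.766 to 0.861) and 0.702 times (0.642 to 0.766) the level of the remaining macrophages. Cebpa did not differ between Folr2 and the remaining macrophages beyond counting error, with ratios of 1.05 (0.886 to 1.23) and 1.07 (0.841 to 1.37). In Cxcl9 macrophages Cebpa stood lower, at 62.0 CPM in library 1 (47.6 to 79.5) and 46.2 CPM in library 2 (31.4 to 65.5). Folr2 macrophages had 84.8 CPM (74.9 to 95.7) and 91.2 CPM (75.9 to 108.6).

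Bhlhe40, a repressor with a role in proliferation of tissue macrophages and in cytokine output of T cells, was low in most macrophages. It was high in CD4 and CD8 T cells, NK cells and migratory dendritic cells, and lower in regulatory T cells. Its locus is on chromosome 6 at 108660629 to 108666925 on the forward strand. Bhlhe40 stood at 494 CPM in library 1 and 542 CPM in library 2 in CD4 T cells, at 456 CPM and 543 CPM in CD8 T cells and at 429 CPM and 463 CPM in migratory dendritic cells. Macrophages had 44.9 CPM and 41.6 CPM, and classical monocytes 45.5 CPM and 47.7 CPM. In regulatory T cells it had 162 CPM and 169.6 CPM, which was 0.328 times the CD4 T cell level in library 1 (0.283 to 0.380) and 0.313 times in library 2 (0.257 to 0.379). Maf, in contrast, was higher in regulatory than in CD4 T cells in both libraries.

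The few macrophages gated on Arg1, an arginase gene of alternatively activated and tumour macrophages, had the highest Bhlhe40 level of the macrophage sub-gates in both libraries. They numbered 12 in library 1 and 10 in library 2, with 18 and 11 Bhlhe40 UMIs. Their levels were 148 CPM and 115 CPM, against 29.1 CPM and 23.3 CPM in Folr2 macrophages. The ratio was 5.08 in library 1 (2.89 to 8.49) and 4.93 in library 2 (2.24 to 10.0). Against macrophages of no sub-gate it was 2.44 in library 1 (1.42 to 3.93) and 2.06 in library 2, where the interval (0.999 to 3.85) included no difference. Cebpb was higher in Arg1 than in Folr2 macrophages, by 2.91 times (2.45 to 3.45) and 1.40 times (1.12 to 1.73), but in library 2 Arg1 macrophages, at 993 CPM, lay below Cxcl9 macrophages (1103 CPM) and macrophages of no sub-gate (1302 CPM). UMIs of so few cells can come from 1 or 2 of them, which the intervals do not cover: 5 of 12 and 5 of 10 Arg1 macrophages had a Bhlhe40 UMI.

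**Figure D4:**
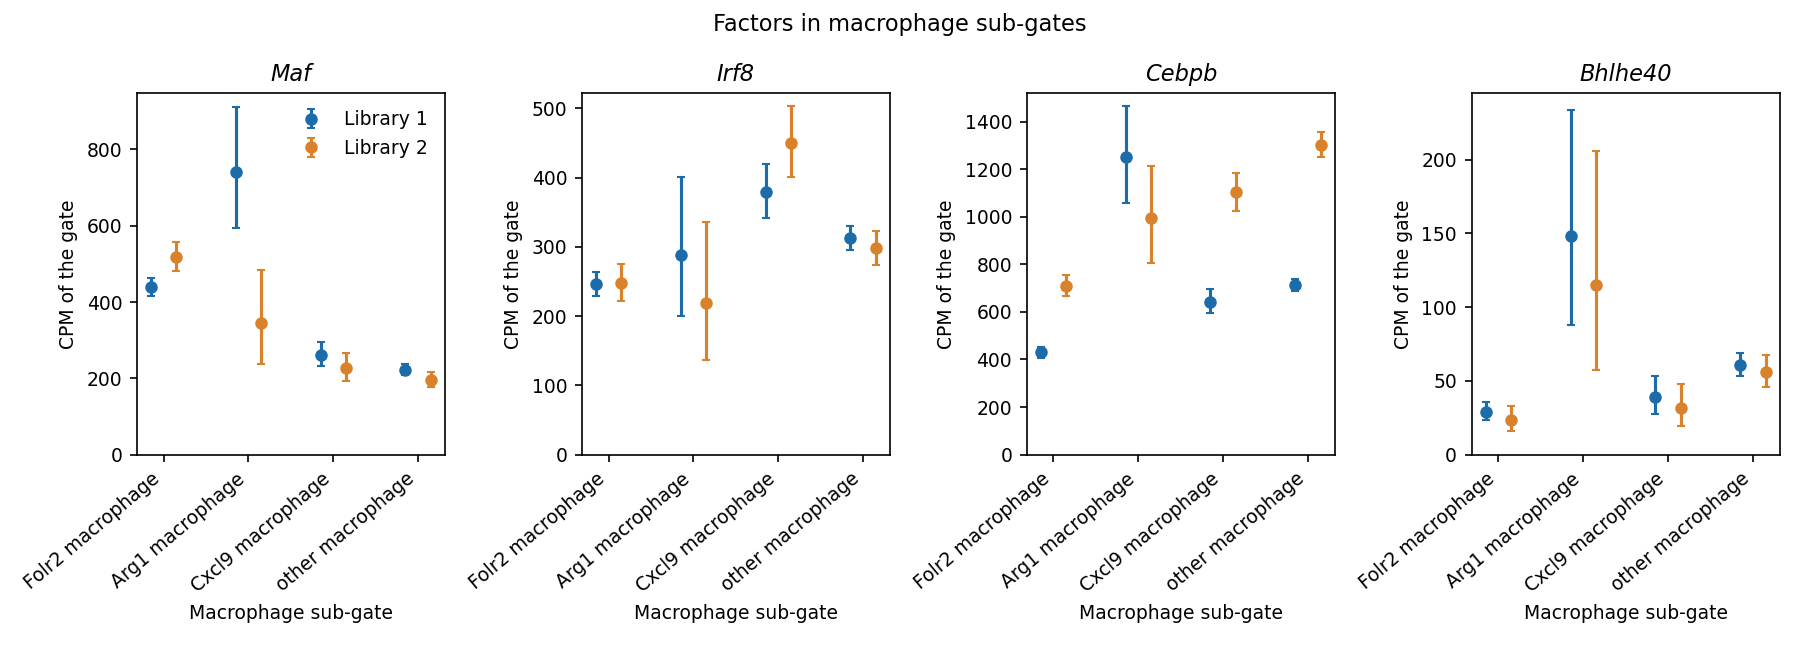
Maf, Irf8, Cebpb and Bhlhe40 in 4 macrophage sub-gates, as CPM of the sub-gate on linear axes from 0. Points are library 1 (blue) and library 2 (orange), and bars are exact 95% Poisson intervals. Maf in Folr2 macrophages lies at 439 CPM and 518 CPM, above Cxcl9 and other macrophages, while Irf8 is higher in Cxcl9 than in Folr2 macrophages.

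Between the libraries, most member levels were close, and Cebpb was the member past 1.5 times in the most gates. In the 12 gates with at least 50 cells in each library, 66 pairs of a member and a gate reached 50 UMIs when the libraries' sums were added. Of these, 13 were past 1.5 times, where 8.61% of all 68163 gene and gate pairs were, with a share per gate between 5.25% in NK cells and 16.1% in neutrophils. Library 1 was higher in 2 of the 13 (4.35% of all pairs) and lower in 11 (4.26% of all pairs). The median log2 ratio over the 66 was -0.07, while the median over all genes lay between -0.07 and 0.01 in each gate. The genotype and everything else that differs between 2 libraries cannot be told apart here.

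Cebpb was lower in library 1 in all 11 gates where it had enough UMIs, and past 1.5 times in 5 of them. In those 5 gates, between 2.33% (NK cells) and 5.94% (cDC2) of all genes with enough UMIs were that much lower. The share of all genes that keep to 1 direction over so many gates was not counted. The Cebpb log2 ratio, library 1 over library 2, was -1.11 in cDC2 (-1.40 to -0.84), -1.08 in regulatory T cells (-1.31 to -0.84) and -0.80 in CD4 T cells (-1.22 to -0.40). It was -0.79 in macrophages (-0.85 to -0.74), -0.73 in NK cells (-0.83 to -0.63) and -0.58 in classical monocytes (-0.63 to -0.53). The smallest ratios were -0.38 in neutrophils and -0.31 in B cells. The interval included 0 in B cells (-0.87 to 0.28) and in mast cells, at -0.58 (-1.30 to 0.13). Migratory dendritic cells, with 34 and 12 UMIs, had too few to count and stood the other way, at 36.7 CPM and 17.9 CPM.

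The larger macrophage sub-gates shared the direction of Cebpb, at -0.73 in Folr2, -0.78 in Cxcl9 and -0.87 in the remaining macrophages. The 12 and 10 Arg1 macrophages stood the other way, at 1250.4 CPM in library 1 and 993 CPM in library 2. Monocyte markers moved with that value: the median Arg1 macrophage had 38 Ly6c2 UMIs in library 1 and 3 in library 2, 6 and 2.5 UMIs of the monocyte panel, and 26.5 and 62 of C1q genes. Their part in the result was not tested. Cebpa, its paralogue, had a ratio of 0.01 in macrophages (-0.17 to 0.19) and 0.19 in classical monocytes (-0.13 to 0.51). The direction also held outside the gates, though not to the same degree. Cells with panels of 2 lineages had 360.3 CPM of Cebpb in library 1 and 603 CPM in library 2. Cells of 1 lineage without a gate had 877 CPM and 1176 CPM, and the few with panels of 2 myeloid types 353 CPM and 706 CPM. In cells with no panel the levels were near-equal, at 1089 CPM and 1142 CPM.

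Other values also differed between the libraries. Neutrophils, the gate of highest Cebpb, were 1.15% of kept cells in library 1 and 2.65% in library 2. The summed neutrophil panel (S100a8, S100a9, Retnlg and Cxcr2) stood at 7.28 CPM and 7.96 CPM in macrophages, 3.83 CPM and 3.46 CPM in cDC2, 7.60 CPM and 8.29 CPM in NK cells, and 5.09 CPM and 10.7 CPM in regulatory T cells. In cDC2 and macrophages these panel levels were thus near-equal between libraries, but not in every gate. The panel was lower in library 1 in CD4 T cells, at 7.99 CPM and 17.6 CPM, and in classical monocytes, at 13.6 CPM and 22.0 CPM. In gamma-delta T cells it was higher in library 1, at 11.4 CPM and 5.46 CPM, as it was in mast cells. Migratory dendritic cells, where Cebpb stood higher in library 1, had 4.31 CPM and 8.96 CPM of the panel. The mitochondrial share of UMIs was lower in library 1 in all 15 gates. It was 1.12% and 1.21% in macrophages, and 0.852% and 1.03% in cDC2. In migratory dendritic cells, where Cebpb went the other way, it was 0.805% and 0.988%. What part these values have in the Cebpb ratio was not tested.

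The other dendritic and lymphoid differences were scattered over members. Irf8 was lower in library 1 in cDC2, with 167 CPM and 264 CPM and a log2 ratio of -0.66 (-0.92 to -0.41), but not in macrophages (-0.00, -0.09 to 0.09). It was also lower in library 1 in neutrophils, at -0.67 (-1.38 to -0.05, from 27 and 81 UMIs), which turned to 0.36 with cells with panels of 2 lineages left in. It was higher in CD4 T cells, with 107 CPM and 51.6 CPM, at 1.05 (0.51 to 1.62). Irf4 was lower in library 1 in CD8 T cells, with 23.0 CPM and 37.7 CPM, at -0.71 (-0.89 to -0.53), and in regulatory T cells, at -0.67 (-1.28 to -0.03). Maf was lower in CD8 T cells, with 15.7 CPM and 30.6 CPM, at -0.96 (-1.17 to -0.76), and Bhlhe40 in gamma-delta T cells, with 144 CPM and 229 CPM, at -0.67 (-1.17 to -0.19). Neither Tcf4, Cebpa nor Batf3 was past 1.5 times in any of the gates where it had enough UMIs, 7, 3 and 4 of them.

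Spi1 in CD8 T cells was the largest ratio towards library 1, at 11.04 CPM and 4.76 CPM, from 229 and 74 UMIs, a log2 ratio of 1.21 (0.83 to 1.61). The macrophage panel was higher in library 1 too, in CD8 T cells and in every other gate but macrophages. C1qa, C1qb and C1qc together stood at 109.7 CPM in library 1 and 45.01 CPM in library 2 in CD8 T cells. In NK cells they stood at 95.6 CPM and 32.3 CPM. Whether free RNA or joined cells account for the Spi1 ratio was not tested. Leaving out lymphoid cells with a C1q UMI, a step added after the data were seen, gave a log2 ratio of 1.53 for Spi1 in CD8 T cells. Leaving in cells with panels of 2 lineages gave 0.00. That step also brought Cebpb in regulatory T cells to -0.48, Irf4 in regulatory T cells to -0.41, Bhlhe40 in gamma-delta T cells to -0.39 and Irf8 in CD4 T cells to 0.51, all within 1.5 times. Removal of the C1q-positive lymphoid cells moved Maf in CD8 T cells to -0.46, Cebpb in NK cells to -0.53 and Cebpb in regulatory T cells to -0.78.

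**Figure D5:**
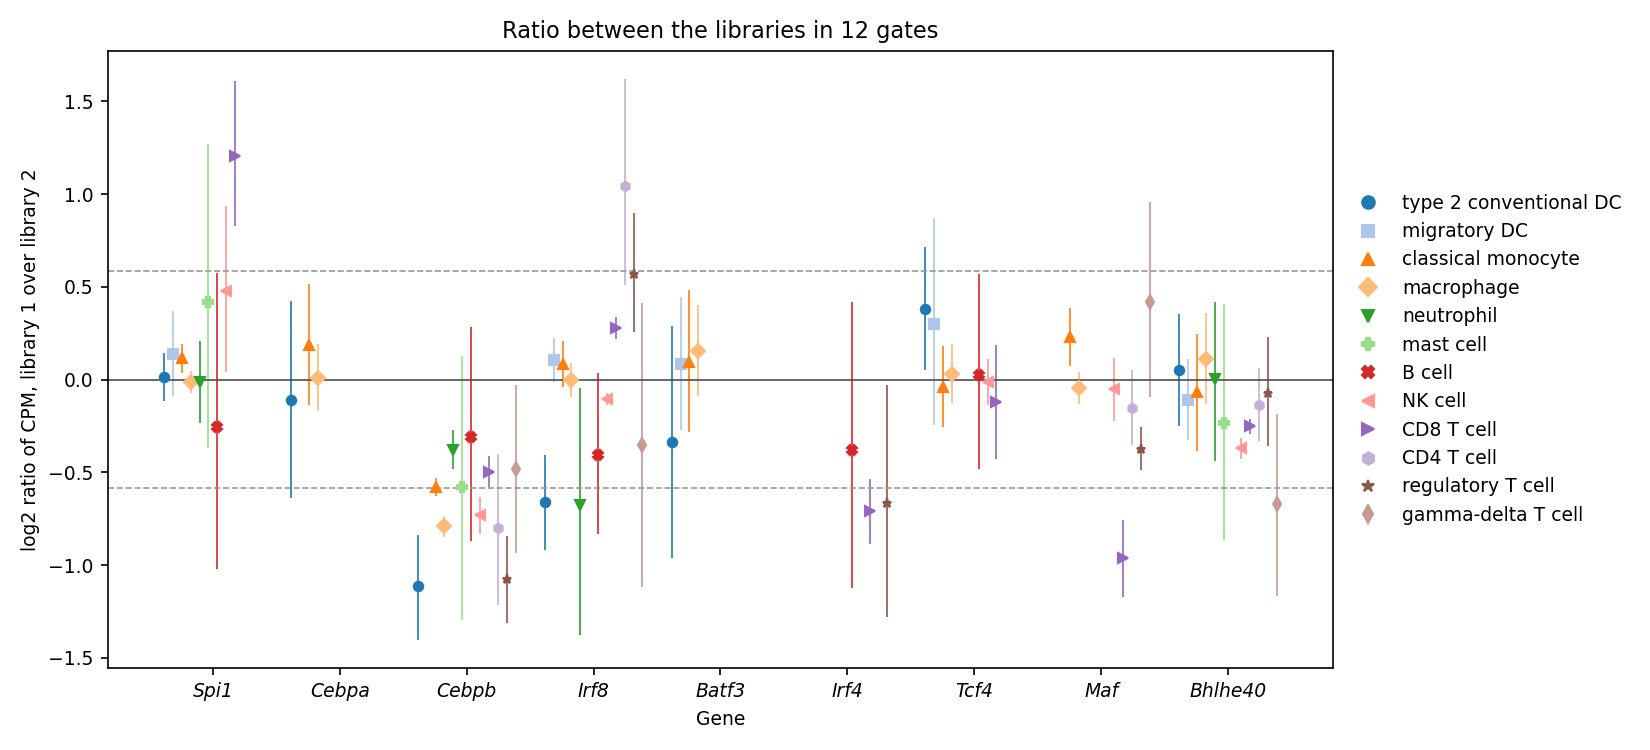
Log2 ratio of CPM, library 1 over library 2, for each member in the gates where the libraries' sums reached 50 UMIs when added. Symbols are gates, bars are exact 95% intervals, the solid line is no difference and the dashed lines are 1.5 times. All 11 Cebpb points lie below 0, from -1.11 to -0.31, while Spi1, Batf3, Cebpa and Tcf4 lie around 0 in the myeloid gates.

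Among 42 related factors, 31 had the same highest gate in both libraries, as had 8 of 11 receptors that act with them. Plasmacytoid cells led for Bcl11a, Spib, Runx2 and Tcf12, alongside Tcf4 and Irf8. Bcl11a, a zinc finger repressor of that lineage, stood there at 701 CPM in library 1 and 569 CPM in library 2, and Spib, an ETS factor close to PU.1, at 193 CPM and 233 CPM. Among the gates with at least 20 cells in each library, which leave out cDC1, migratory dendritic cells led for Id2, Zbtb46, Relb and Stat3. They were also the main site of Batf3 among those gates. Relb, an NF-κB subunit of dendritic maturation, had 690.3 CPM and 737 CPM there.

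Neutrophils led for Cebpd and Cebpe as they did for Cebpb, with Cebpd at 432 CPM and 334 CPM. Of the receptors, Csf3r, the receptor of the granulocyte factor G-CSF, peaked in neutrophils at 993 CPM and 914 CPM. Csf1r, the receptor of the macrophage factor M-CSF, peaked in non-classical monocytes at 738 CPM and 731 CPM, a gate of high Spi1.

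Between the libraries, related factors were past 1.5 times in 38 of 311 pairs with enough UMIs, 21 higher and 17 lower in library 1, against the 8.61% of all pairs. Their median log2 ratio was -0.03. Receptors were higher in 5 and lower in 2 of 78 pairs, with a median of -0.02. Atf3 and Klf4 were each higher in library 1 in 3 of 11 gates and lower in 1. Maff, a small MAF protein, was lower in 3 of 7 gates and higher in 0. Over all gene and gate pairs, 4.35% were higher and 4.26% lower. Maff was lower in cDC2, neutrophils and NK cells.

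By pattern over 14 gates in each of the libraries, 28 values of log2(CPM + 1), the genes most like each member were sought among 5448 genes outside the gate panels. The cDC1 gate was not among the 14. Pirb and Plbd1 were among the 3 genes most like Spi1, with Pearson r of 0.97 and 0.96. Cebpa was followed most closely by Tifab, Sdc3 and Rin2, at 0.95, 0.93 and 0.92. Tcf4 was nearest to Mef2c, Bcl11a and Unc93b1, at 0.89, 0.89 and 0.86, and Batf3 to Htr7, Rtn4 and 5430437J10Rik, at 0.91, 0.88 and 0.88. Cebpb was nearest to Mpp1, Nadk and Il17ra, at 0.90, 0.90 and 0.90. These members thus had close companions in level. For Irf8 (St8sia4, 0.78), Irf4 (Btla, 0.80), Maf (Azi2, 0.82) and Bhlhe40 (Serpinb6b, 0.79), the nearest genes were less alike. Irf4 was a low transcript in most gates, and the reason for the lower values was not tested.

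Among the members themselves, the highest correlations were 0.77 between Spi1 and Cebpa, 0.75 between Irf8 and Tcf4 and 0.72 between Spi1 and Batf3. Tcf4 and Maf were the most opposed, at -0.49, with Spi1 and Bhlhe40 at -0.49. The 28 points share 2 libraries and, within each, the free RNA of a common suspension, and gates differ in depth, so these values describe the libraries and carry no p-value.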

How the data were processed

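The authors deposited 1 matrix of UMI counts per gene and cell barcode for both samples, as whole numbers and not normalised, made with Cell Ranger 6.1.2 on mm10 per the submitters' processing notes. The gene annotation and any subsampling between libraries are not given in the sources used here. The members, gates and lists were chosen with earlier results of these data known.

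Barcodes under 500 genes or over 10% mitochondrial UMIs were dropped, which left 8066 cells in library 1 and 6113 cells in library 2. A cell entered a gate when the summed UMIs of each marker panel that the gate needs reached a level. Levels were set after the distributions of the marker sums were seen, from those sums alone. The levels were 5 for T cell genes, 4 for NK, B, cDC1 and plasmacytoid genes, and 30 for mast cell genes. They were 10 for neutrophil and C1q genes, and 5 for cDC2, migratory dendritic, monocyte and non-classical monocyte genes. Macrophages, cDC2 and both monocyte gates also needed 5 UMIs of Ms4a6c, Clec4a3 and Clec12a, and classical monocytes 5 of Ly6c2. T cell gates also needed 3 UMIs of Cd8a and Cd8b1, 1 of Cd4, 2 of Foxp3 or 3 of Trdc. CD4 T cells had no Foxp3 UMI, and regulatory T cells needed no Cd4 UMI. Sub-gate levels were 5 for the Folr2 panel and Arg1, and 10 for Cxcl9. Gates within a lineage also kept out cells at the level of some other panels. Cells that reached panels of 2 lineages (864 and 656) were left out, which was the treatment of doublets, and no doublet caller was run. Other cells reached no gate: 398 and 247 had no panel, 1183 and 695 had 1 lineage but no gate, and 13 and 9 had panels of 2 myeloid types.

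UMIs were summed per gate and library and scaled to CPM of the gate total. Log2 ratios took a pseudocount of 0.5 UMI. Called means past 1.5 times with 50 or more UMIs when both libraries' sums are added. Intervals are exact Poisson, Clopper-Pearson and conditional binomial intervals at 95%, and a count of 0 allows 3 UMIs. The ratio and interval steps were tested on simulated data. All 9 members are named, and from the lists the genes past 1.5 times in the most gates and those leading a gate. For likeness, 3 genes per member at 50 or more CPM in a gate of both libraries were named. A few items that these rules would name are not reported here. Of 55401 gene IDs, 54349 matched GENCODE M21 with their version, all 9 members included. RefSeq windows were found for Irf8, Cebpb, Cebpa, Batf3 and Irf4. Those of Batf3 and Irf4 overlap annotated exons and are not printed, and no sequence of Tcf4 is given. The analysis used Python 3.11.15 with numpy 2.4.6, scipy 1.17.1, pandas 2.3.3 and matplotlib 3.10.9. Alternatives covered the cell filter, the gate levels, cells with panels of 2 lineages, depth, scaling, the UMI minimum and the pseudocount.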

Additional observations from a re-analysis of the deposited data

Results flagged for a closer look

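Irf8 moved in opposite directions between the libraries in a pair of gates. Its log2 ratio, library 1 over library 2, was 1.05 in CD4 T cells (from 94 and 41 UMIs) and -0.67 in neutrophils (from 27 and 81 UMIs). Both intervals exclude 0, but the difference between the gates was not tested, since each library is 1 sample. The neutrophil value turned to 0.36 when cells with panels of 2 lineages were left in, and the CD4 T cell value then stood at 0.51. The C1q panel was higher in library 1 in both gates, and in every other gate but macrophages. It stood at 119 CPM in library 1 and 45.3 CPM in library 2 in CD4 T cells. In neutrophils, where Irf8 went the other way, it stood at 142 CPM and 69.2 CPM. The part of the C1q panel in the result was not tested.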

How the results depend on the processing

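No paired analysis was possible because each genotype has 1 sample and no library has a replicate. The count of members with the same highest gate was 7, and stayed between 7 and 9 under every alternative run. Against 2 higher and 11 lower pairs of 66, panel sums at least 2 times the level gave 7 lower of 45. Cells with panels of 2 lineages left in gave 6 higher of 81 and turned Irf8 in neutrophils to a log2 ratio of 0.36. A minimum of 10 UMIs gave 12 higher and 16 lower of 91, and no minimum gave 16 higher and 22 lower of 106. Lymphoid cells with a C1q UMI left out, chosen after seeing the data, gave 4 higher and 7 lower of 56. The cause of these changes was not tested, beyond the fewer or more pairs that each alternative counts. Over the 669 values of single log2 ratios under alternatives, 641 moved by less than their counting interval, 27 moved further and 1 reversed. The 66 values under each UMI minimum could not move, since they use the same sums, and the pseudocount moved 0 of its 66. Thinning moved 9 further and kept 40. Cells with panels of 2 lineages left in moved 9, reversed 1 and kept 56. Leaving out lymphoid cells with a C1q UMI moved 6 and kept 50. In the 11 gates counted above, Cebpb stayed below 0 wherever an alternative gave a value. Migratory dendritic cells enter when the minimum is 10 UMIs or none, and there its ratio was 1.00 (0.05 to 2.12). Its macrophage ratio ranged from -0.84 to -0.75 and its cDC2 ratio from -1.11 to -0.93. Its calls were lost under an alternative in regulatory T cells (-1.24 to -0.48), CD4 T cells (-1.06 to -0.43, when thinned) and NK cells (-0.82 to -0.53). Irf4 in regulatory T cells ranged from -0.67 to -0.41, Bhlhe40 in gamma-delta T cells from -0.67 to -0.39, Maf in CD8 T cells from -1.05 to -0.46, Irf8 in CD4 T cells from 0.51 to 1.39 and Irf8 in neutrophils from -0.88 to 0.36, each losing its call under an alternative. Spi1 in CD8 T cells ranged from 0.00 to 1.53. Depth limited Irf4, Cebpa and Batf3 to 3, 3 and 4 gates with enough UMIs.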

Other observations

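Cells that the gates left out still carried member transcripts. Those with no panel, 398 in library 1 and 247 in library 2, held 589.97 CPM and 807 CPM of Irf8, and 1089 CPM and 1142 CPM of Cebpb, so they are not free of myeloid factors. The few cells with panels of 2 myeloid types, 13 and 9, stood at 1109 CPM and 1472 CPM of Irf8 and 158 CPM and 69.2 CPM of Batf3.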
